A study of Mus musculus with 12 samples.

Results

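The mitochondrial ribosomal protein genes were taken as every gene with a probe set annotated to exactly 1 symbol whose symbol is Mrpl or Mrps followed by a digit, without pseudogenes. The rule gave 76 of 11015 genes, 47 with Mrpl and 29 with Mrps symbols, and used no measured value. All 76 were matched to a RefSeq gene, and 2 further symbols were found only on probe sets that carry several symbols and are not reported. By what is known of the proteins, 49 members belong to the large subunit, 26 to the small subunit and Mrps36 to neither, because its product is a part of the oxoglutarate dehydrogenase complex. A bacterial counterpart is known for 46 members, and the other 30 are specific to mitochondria.

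The mitochondrial ribosome is a particle of ribosomal RNA encoded in mitochondrial DNA and of proteins encoded in the nucleus, made in the cytosol and imported. It translates the few mitochondrial messenger RNAs, which encode core subunits of the respiratory chain and of ATP synthase. In many cell types the nuclear genes for its proteins are served by general promoter factors such as NRF1, YY1 and the GABP complex, whose DNA-binding subunit Gabpa belongs to the ETS family of which Ets1 and Ets2 are also members.

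The cells were endothelial cells isolated from the aorta of 4-week-old mice, cultured in medium with serum, heparin and endothelial growth supplement, and read on Affymetrix mouse arrays as log2 expression. WT cells were Ets1+/+; Ets2+/+ and carried a lentivirus for eGFP. Ets1KO cells were Ets1-/-; Ets2fl/fl with the same eGFP lentivirus, so they carried floxed Ets2 alleles and no Cre. Ets2KO cells were Ets1+/+; Ets2fl/fl and DKO cells were Ets1-/-; Ets2fl/fl, both with a lentivirus for eGFP and Cre. The Cre virus therefore went with loss of Ets2 in both groups, and Cre and loss of Ets2 cannot be told apart. The titles call the samples biological replicates, nothing says that they came from separate animals, and p-values then measure the spread between these samples, which may be technical. A short description calls the Ets1KO and Ets2KO samples wild type, against their titles and genotypes, and the groups here follow the latter.

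Each group has 3 columns of values. In DKO, column 3 is an average of the other columns of that group for 20521 of 20523 probe sets and adds no sample, so it was left out, which leaves 11 arrays and 2 labelled DKO. On the deposited scale the median of all genes was 8.69 and 8.73 on the arrays labelled DKO and 9.37 to 9.50 on the other 9. Levels are therefore given relative to array medians (after subtracting, on every array, its median over the 11015 genes, so that 0 is the median gene), with the deposited scale beside them where it changes a call. The transcript of Ets1 was 1.35 lower in Ets1KO than in WT on the relative scale (limma adjusted p = 0.151), but 2.17 higher on the arrays labelled DKO than in Ets1KO (limma adjusted p = 0.000713). Ets2 was 0.43 lower in Ets2KO than in WT (limma adjusted p = 0.544), but 1.33 higher on the arrays labelled DKO than in Ets2KO (limma adjusted p = 0.00826). As deposited that rise was 0.62 and not called (limma adjusted p = 0.255). Where these probe sets lie against the deleted exons was not analysed here. Because the transcripts of Ets1 and, on the relative scale, of Ets2 go against the label, DKO below means the arrays labelled DKO. Of 16 endothelial markers 4 were measured, and their mean relative level was below the median gene on every array, at -1.67 to -0.74 in WT, -1.83 to -1.39 in Ets1KO, -1.24 to -0.63 in Ets2KO and -1.78 and -1.20 in DKO. Among 7 measured fibroblast markers, the relative WT means of Pdgfra, Col1a1 and Col1a2 were 2.72 to 3.85. Those of Dcn, Lum, Dpt and Mfap5 were -3.61 to -0.99. Among 4 smooth muscle markers, Acta2 had 2.52 and Smtn 0.86 in WT, Tagln -0.01 and Des -2.34. Among 4 pericyte markers, Pdgfrb had 1.98 in WT, and Rgs5, Cspg4 and Notch3 had -2.32 to -0.17. The share of other cell types in these cultures was not tested. Xist stood above Y-linked genes on 2 of 3 WT, 3 of 3 Ets1KO, 0 of 3 Ets2KO and 2 of 2 DKO arrays, so sex was not balanced. In these bulk samples, fewer cells of a type and less RNA per cell cannot be told apart.

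The promoters of the members are described before their levels, since the study removes ETS factors. A RefSeq window of 250 bases before and 50 after the start (build GRCm38.p6) was given for 67 of the 76 members, and 3 of these have several windows. It was searched on both strands for an ETS core (CCGGAAG), for an NRF1 motif (GCGCANGCG, where N is any base) and for a YY1 motif (AAGATGGCG). The ETS core was present in 25 of 67 members (37.3%), against 12.9% of 17492 protein-coding genes. The NRF1 motif was present in 15 members (22.4%, against 9.63%) and the YY1 motif in 8 (11.9%, against 2.14%). With 1 more base at their end, the form first searched, the NRF1 motif was present in 12 members (17.9%, against 7.17%) and the YY1 motif in 5 (7.46%, against 1.41%). The shorter forms were taken after those counts were known. Matches of 1 motif on the 2 strands can overlap, as they do in Mrpl32. A match describes the letters in the window and is not a binding site shown by these data.

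The 120 bases before the start are shown for 8 members whose motifs and values are set side by side below, 5′ to 3′ on the gene's own strand, with the motif in capitals. The first 4 hold the ETS core, which Mrpl34 and Mrps18a share with Mrpl43 and Mrpl58, of which the first pair was called lower in DKO on both scales and the second pair on the deposited scale alone. The next 3 hold the NRF1 motif, in Mrpl12 on the opposite strand and in Mrpl32 on both strands. The last holds the YY1 motif on the opposite strand. Matches that reach past the start are not marked. Among these are a further ETS core of Mrpl58 at position -2 and a YY1 motif of Mrps18a at position 12.
Mrpl34, chr8:71464806-71464925, plus strand: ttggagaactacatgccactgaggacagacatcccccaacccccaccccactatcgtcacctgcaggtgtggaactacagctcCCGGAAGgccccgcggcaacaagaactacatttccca
Mrps18a, chr17:46110884-46111003, plus strand: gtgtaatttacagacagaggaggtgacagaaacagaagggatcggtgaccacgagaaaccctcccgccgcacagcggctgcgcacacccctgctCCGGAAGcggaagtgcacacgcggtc
Mrpl43, chr19:45006443-45006562, minus strand: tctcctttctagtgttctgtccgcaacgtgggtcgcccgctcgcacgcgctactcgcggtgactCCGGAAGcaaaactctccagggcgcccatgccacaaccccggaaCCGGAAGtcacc
Mrpl58, chr11:115403632-115403751, plus strand: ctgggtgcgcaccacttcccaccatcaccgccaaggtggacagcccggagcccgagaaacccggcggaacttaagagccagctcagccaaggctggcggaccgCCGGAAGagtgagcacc
Mrpl12, chr11:120484517-120484636, plus strand: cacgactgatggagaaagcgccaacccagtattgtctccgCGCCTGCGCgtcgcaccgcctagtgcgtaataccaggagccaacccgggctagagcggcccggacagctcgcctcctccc
Mrpl44, chr1:79775898-79776017, plus strand: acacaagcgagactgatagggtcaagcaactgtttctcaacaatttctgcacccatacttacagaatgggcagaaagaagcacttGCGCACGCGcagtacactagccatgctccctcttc
Mrpl32, chr13:14613038-14613157, minus strand: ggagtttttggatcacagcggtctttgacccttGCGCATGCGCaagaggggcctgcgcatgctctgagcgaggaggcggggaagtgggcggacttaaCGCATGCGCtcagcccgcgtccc
Mrps11, chr7:78783011-78783130, plus strand: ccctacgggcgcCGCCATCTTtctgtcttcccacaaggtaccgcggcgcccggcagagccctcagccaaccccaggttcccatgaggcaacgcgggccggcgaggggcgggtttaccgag

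Most members read well above the median gene in every group. Averaged over the arrays, 70 of 76 had a relative level above 0, and in WT the median member lay above 77.9% of all genes. The median level of the 76 members was 1.28, 1.22 and 1.48 on the WT arrays and 1.34, 1.36 and 1.39 on the Ets1KO arrays. It was 1.21, 1.11 and 1.05 on the Ets2KO arrays and 1.07 and 1.002 on the DKO arrays. All 5 arrays with the Cre virus thus had a lower member median than the 6 arrays without it, although the nearest of them, at 1.21 in Ets2KO and 1.22 in WT, differed by less than the SD within either group. The group means of this median were 1.33 ± 0.14 in WT, 1.36 ± 0.03 in Ets1KO, 1.12 ± 0.08 in Ets2KO (SD, n = 3 each) and 1.04 ± 0.05 in DKO (SD, n = 2). On the deposited scale the member medians were 10.65, 10.65 and 10.98 in WT, 10.81, 10.82 and 10.88 in Ets1KO, 10.62, 10.50 and 10.50 in Ets2KO, and 9.81 and 9.69 in DKO.

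**Figure D1:**
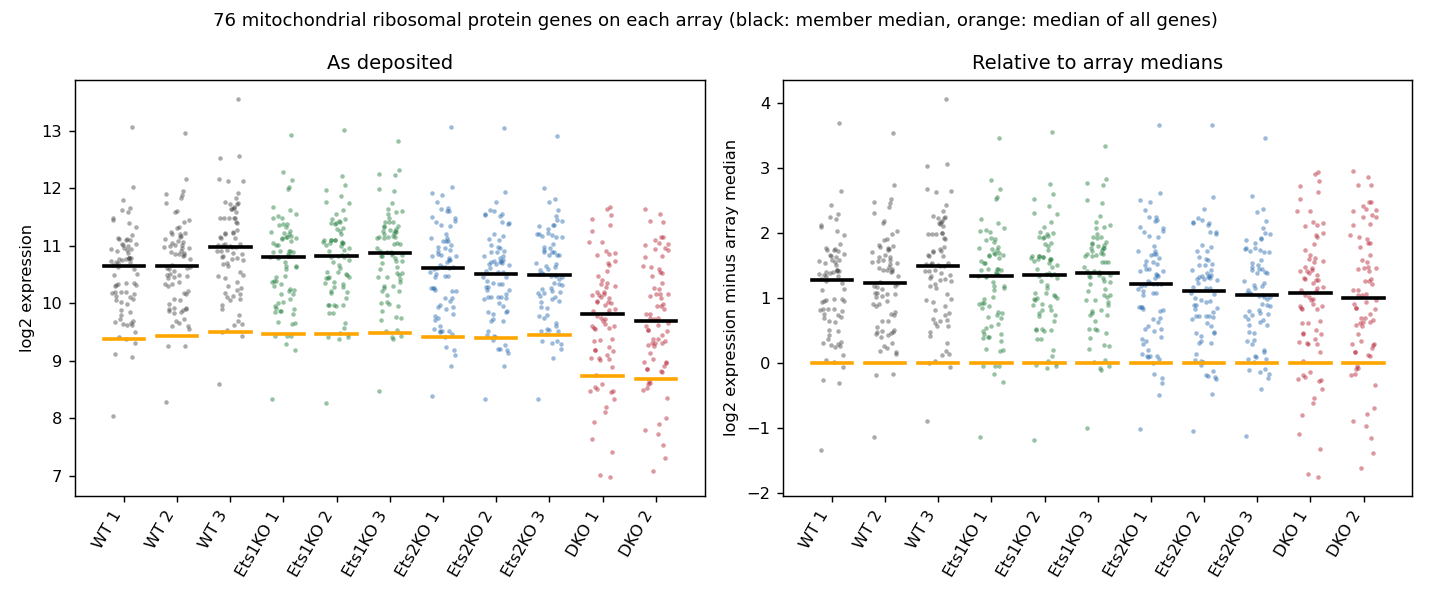
Levels of the 76 members on each of 11 arrays, as deposited (left) and relative to array medians (right), both in log2 units. Points are members, black bars the member median and orange bars the median of all genes, which in the left panel lies at 8.69 and 8.73 on the 2 DKO arrays and at 9.37 to 9.50 on the others. In the right panel the member median lies between 1.22 and 1.48 in WT and Ets1KO and between 1.002 and 1.21 in Ets2KO and DKO.

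The brightest probe set in WT belonged to Mrps6, a small-subunit protein, with a relative level of 3.76 ± 0.27 (SD, n = 3). It was followed by Mrpl51 at 2.82 ± 0.22 and Mrpl13, a bacterial-type protein of the large subunit, at 2.53 ± 0.47. The lowest were Mrpl1 at -1.12 ± 0.22, Mrps31 at -0.15 ± 0.13 and Mrps5 at -0.10 ± 0.26. Brightness depends on the probes as well as on the transcript, so these levels give the room each probe set has to move and do not rank transcripts.

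In Ets1KO the members were centred on their WT levels. Of the 76 differences between Ets1KO and WT, 39 were below 0 (53.8% of all genes were), their median was -0.00 against -0.03 for all genes, and they ran from -0.56 to 0.41 (log2 differences relative to array medians). None was called by limma at an adjusted p below 0.05, where 0.00908% of all genes were called, and 4 had an unadjusted p below 0.05. The groups did not overlap for 7 members higher and 8 lower in Ets1KO, against 7% and 11.5% of all genes. The interquartile range of the differences was 0.20 among members and 0.37 among all genes.

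The members with the lowest p in this comparison were small in size. Mrps16, a small-subunit protein, read 2.03, 2.46 and 2.34 in WT and 2.55, 2.76 and 2.74 in Ets1KO. All 3 Ets1KO arrays lay above WT, and the difference was 0.41 (SE 0.17, limma adjusted p = 0.564). Mrpl57 differed by 0.33 and Mrpl52 by 0.20 in the same direction, with limma adjusted p of 0.562 and 0.645. In the other direction, Mrpl37 differed by -0.40, Mrpl46 by -0.31 and Mrpl20, a bacterial-type protein of the large subunit, by -0.56, with limma adjusted p of 0.568, 0.568 and 0.59. None of these 6 differences passed the test.

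In Ets2KO against WT most members read slightly lower, and none was called. Of 76 differences 60 were below 0, where 50.7% of all genes were, and their median was -0.24 against -0.01 for all genes (log2 differences relative to array medians, from -0.66 to 0.68). The groups did not overlap for 30 members lower and 4 higher in Ets2KO, against 13.4% and 13.6% of all genes. Limma called 0 members, where 0.436% of all genes were called, and 20 of the 76 had an unadjusted p below 0.05. As deposited, the median was -0.26. By subunit, 37 of 49 large-subunit members had a difference below 0, with a median of -0.25, and 22 of 26 small-subunit members, with a median of -0.19. Among members with a bacterial counterpart 35 of 46 were below 0 and among mitochondria-specific ones 25 of 30.

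Among related gene groups the medians ranged on both sides of that of the members. The 11 nuclear regulators of mitochondrial genes had a median difference of -0.36 between Ets2KO and WT, with 8 below 0, and the 4 mitoribosomal proteins with other names had -0.21, with 3 below 0. The medians were -0.07 for 20 assembly factors and for 13 translation factors, -0.03 for 18 aminoacyl-tRNA synthetases and -0.02 for 9 genes of mitochondrial DNA and transcription. The 42 cytosolic ribosomal protein genes had 0.01, with 17 below 0, and the 75 genes for subunits of oxidative phosphorylation had -0.03, with 43 below 0. No test of the difference between these lists was made. WT replicate 3 had the highest member median of the 11 arrays, and without it the members' median difference was -0.11. With a term for sex (Xist against Y-linked genes) the median was -0.08 and 50 of 76 were below 0, and that term rests on WT, the 1 group with arrays of both kinds. Ets2KO replicate 3 stood apart in 11 measured cell cycle genes, with a mean relative level of -2.58 where the other 10 arrays had 0.27 to 2.29, and without it the median was -0.20. The mean of 3 adipocyte markers was -0.46, 1.81 and 2.19 in Ets2KO and 0.91 on WT replicate 3, where the other 7 arrays had -3.93 to -1.46. The part of cell cycle activity and of such cells in the lower member levels was not tested.

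**Figure D2:**
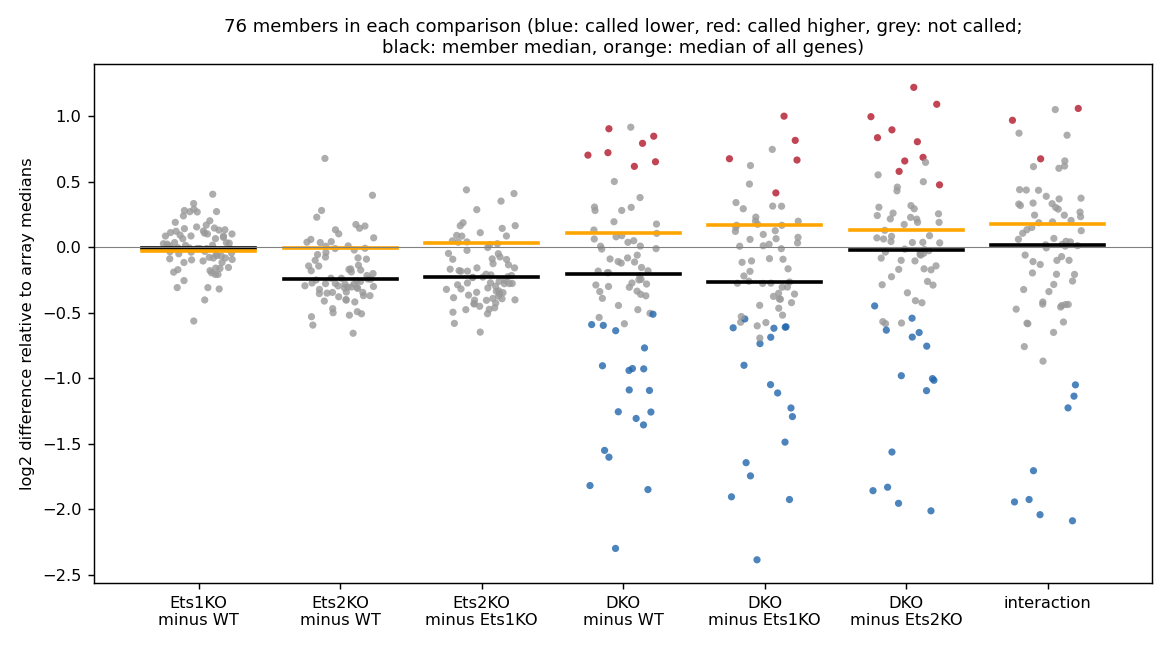
Log2 differences relative to array medians of the 76 members (points) in 6 comparisons and in the interaction, which is the DKO minus Ets1KO difference less the Ets2KO minus WT difference. Black bars are member medians and orange bars medians of all genes. In Ets2KO the points lie mostly below 0 with none called, and in the 3 comparisons with DKO a tail of members called lower reaches below -2.

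Mrpl54, a mitochondria-specific protein of the large subunit, had the lowest p in Ets2KO. It read 1.43, 1.59 and 1.64 in WT and 1.07, 0.72 and 0.90 in Ets2KO. The groups did not overlap, and the difference was -0.66 (SE 0.13, limma adjusted p = 0.0642). Mrps2, a bacterial-type protein of the small subunit, differed by -0.50 (limma adjusted p = 0.102), and its second probe set gave -0.50 as well. Mrpl46 differed by -0.52 (limma adjusted p = 0.102). The members furthest in the other direction were Mrpl24, at 0.68 (limma adjusted p = 0.11), Mrpl23, at 0.40 (0.231), and Mrpl10, at 0.28 (0.262). Mrpl23 and Mrpl24 are bacterial-type proteins near the exit of the tunnel through which the nascent chain leaves.

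Set directly against each other, Ets2KO lay below Ets1KO by nearly the same amount as below WT. The 2 comparisons share the Ets2KO arrays. Of 76 differences between Ets2KO and Ets1KO 59 were below 0, with a median of -0.23 against 0.03 for all genes, 46.6% of which were below 0. The groups did not overlap for 34 members lower and 3 higher in Ets2KO, against 15.4% and 20.1% of all genes. Limma called 0 members, where 3.4% of all genes were called, and 19 had an unadjusted p below 0.05. As deposited, 1 member, Mrpl19, was called lower, where 2.94% of all genes were called. With array weights, which count outlying arrays less, limma called 2 members higher and 6 lower in Ets2KO against WT. There 560 of 11015 genes were called higher and 525 lower. In Ets2KO against Ets1KO the weights gave 2 members higher and 23 lower, where 1666 of all genes were called higher and 1401 lower. With a term for sex the median was -0.05, and every Ets1KO array had Xist above the Y-linked genes where no Ets2KO array had. Markers of other cell types differed in the same comparison: the adipocyte marker Fabp4 was 5.72 higher in Ets2KO (limma adjusted p = 0.0491, 1 of 3 markers called), the fibroblast marker Dpt 3.99 higher (0.0185) and the fibroblast collagen Col1a1 differed by -2.41 (0.0479, 2 of 7 markers called). As deposited, Fabp4 was not called (limma adjusted p = 0.0532). All 11 cell cycle genes were below 0, with a median of -1.68 and none called, where Ets2KO replicate 3 stood apart as above. Their part in the member levels was not tested.

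Mrpl19 read 0.70, 0.82 and 0.65 in Ets1KO and 0.19, 0.33 and 0.35 in Ets2KO. All Ets2KO arrays lay below all Ets1KO arrays, and the difference was -0.43 (SE 0.11, limma adjusted p = 0.0632). Mrpl15, a bacterial-type protein of the large subunit, differed by -0.65 (limma adjusted p = 0.0699) and Mrpl54 by -0.46 (0.0913). Higher in Ets2KO with the lowest p were Mrpl23, by 0.41 (limma adjusted p = 0.175), Mrpl24, by 0.44 (0.189), and Mrpl39, by 0.35 (0.324). None of these 6 passed the test on the relative scale.

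On the arrays labelled DKO a minority of members fell by a large amount. Against WT, limma called 20 of 76 members lower and 7 higher, where 28.3% of all genes were called, 12% lower and 16.4% higher. The 76 differences ran from -2.30 to 0.92 with a median of -0.21, against 0.11 for all genes, and 51 were below 0 (43.5% of all genes were). The groups did not overlap for 29 members lower and 9 higher in DKO, against 22.1% and 30.2% of all genes. As deposited, all 20 kept their call, no member was called higher, and 60 were called lower, with a median of -0.93 where all genes had -0.61 and 43.6% of them were called lower and 2.32% higher. With the 75th percentile of each array subtracted in place of the median, 23 were called lower and 4 higher. Of 11015 genes, 1682 were then called lower and 1212 higher.

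Large and small subunits were both among the falls. Of 49 large-subunit members 14 were called lower and 7 higher in DKO against WT, and of 26 small-subunit members 6 were called lower and 0 higher (9 of these 26 had an unadjusted p below 0.05). Of the 46 members with a bacterial counterpart 14 were called lower and 4 higher, and of the 30 mitochondria-specific members 6 and 3. Of 3 macrophage and leukocyte markers Csf1r was called 0.67 higher (not so as deposited), and the other 2 were below 0. Of 3 adipocyte markers, all below 0, Retn differed by -0.60 (called lower). Both read far below the median gene, Csf1r at -2.01 in WT and -1.34 in DKO, Retn at -1.86 and -2.47. As deposited, 3 of 4 endothelial and 2 of 3 macrophage and leukocyte markers were called lower, where 43.6% of all genes were. The part of these cell types in the member differences was not tested. When only WT and DKO entered the fit, which leaves 5 arrays, 11 members were called lower and 1 higher. Of 11015 genes, 663 were then called lower and 662 higher. The direction of the 42 cytosolic ribosomal protein genes was the other way on this scale, with 21 called higher, 0 lower (25 with an unadjusted p below 0.05) and a median of 0.37, but with 1 higher, 23 lower and a median of -0.35 on the deposited scale. The 75 oxidative phosphorylation genes had 18 called higher and 9 lower, with a median of 0.19, and 3 higher and 39 lower, with a median of -0.53, on the deposited scale.

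The largest fall was that of Mrpl19, a bacterial-type protein at the face of the large subunit. It read 0.65, 0.64 and 0.61 in WT, 0.70, 0.82 and 0.65 in Ets1KO, 0.19, 0.33 and 0.35 in Ets2KO, and -1.72 and -1.62 in DKO. Both DKO arrays were far below the other 9, which stayed above the median gene. The difference between DKO and WT was -2.30 (SE 0.12, limma adjusted p = 6.02e-05), and a second probe set of the gene gave -1.46.

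Mrps11, a bacterial-type protein of the small-subunit platform, read 0.32, 0.50 and 0.67 in WT and 0.34, 0.64 and 0.73 in Ets1KO. It read 0.68, 0.70 and 0.59 in Ets2KO and -1.32 and -1.39 in DKO. WT, Ets1KO and Ets2KO overlapped, and the arrays labelled DKO lay below all of them. The difference from WT was -1.85 (SE 0.16, limma adjusted p = 0.000242), and it is the gene whose promoter above carries the YY1 motif.

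Mrpl4, whose bacterial counterpart lines the exit tunnel, read 1.57, 1.70 and 1.52 in WT, 1.76, 1.64 and 1.65 in Ets1KO, 1.72, 1.43 and 1.75 in Ets2KO, and -0.25 and -0.20 in DKO. Again only the DKO arrays stood apart, by -1.82 from WT (SE 0.14, limma adjusted p = 0.000161). Mrpl34, a small basic protein of the large subunit, read 1.40, 1.24 and 1.72 in WT, 1.31, 1.65 and 1.83 in Ets1KO, 1.45, 1.32 and 1.47 in Ets2KO, and -0.22 and -0.07 in DKO. Its DKO arrays lay below every other array, by -1.60 from WT (SE 0.19, limma adjusted p = 0.000857).

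Mrpl10 forms the base of the stalk through which the large subunit receives translation factors. It read 1.53, 1.57 and 1.51 in WT, 1.54, 1.59 and 1.77 in Ets1KO, 2.01, 1.72 and 1.73 in Ets2KO, and 0.02 and -0.05 in DKO. Its Ets2KO arrays lay above WT and its DKO arrays below, and the difference between DKO and WT was -1.55 (SE 0.14, limma adjusted p = 0.000266). The other stalk proteins moved the same way by less. Mrpl12, which binds Mrpl10 and carries the NRF1 motif above, read 1.74, 1.90 and 2.14 in WT and 0.91 and 1.06 in DKO, a difference of -0.94 (SE 0.17, limma adjusted p = 0.00436). Mrpl11, at the stalk base, read 1.82, 1.80 and 2.42 in WT and 1.28 and 1.22 in DKO, a difference of -0.77 (SE 0.20, limma adjusted p = 0.0207). Its other 2 probe sets gave 0.19 and 0.25, so the fall of Mrpl11 rests on its brightest probe set.

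Mrps5, a bacterial-type protein of the small subunit near the site where messenger RNA enters, read -0.31, -0.17 and 0.19 in WT, -0.04, 0.10 and 0.05 in Ets1KO, -0.49, -0.48 and -0.10 in Ets2KO, and -1.75 and -1.15 in DKO. The DKO arrays lay below all others, by -1.36 from WT (SE 0.22, limma adjusted p = 0.00307). Of its other 3 probe sets, 2 also gave negative differences, -1.96 and -0.80, and 1 gave 0.40. The other 12 members called lower in DKO against WT, beside these 6 and the 2 remaining stalk proteins, had differences from -1.31 (Mrpl54) to -0.51 (Mrps27, a small-subunit protein with RNA-binding helical repeats). Mrps6 read 3.69, 3.54 and 4.06 in WT and 2.94 and 2.73 in DKO, and both of its probe sets fell, by 0.93 and 1.73 on the log2 scale. Of the 27 members called in DKO against WT, 16 kept the call whichever single array was left out. The other 11 lost it without at least 1 array: Mrpl11, Mrpl20, Mrpl45, a protein near the tunnel exit, Mrpl50, Mrps12, whose bacterial counterpart lies at the decoding site, and Mrps27 among the falls, and Mrpl23, Mrpl24, Mrpl32, Mrpl39 and Mrpl47 among the rises.

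**Figure D3:**
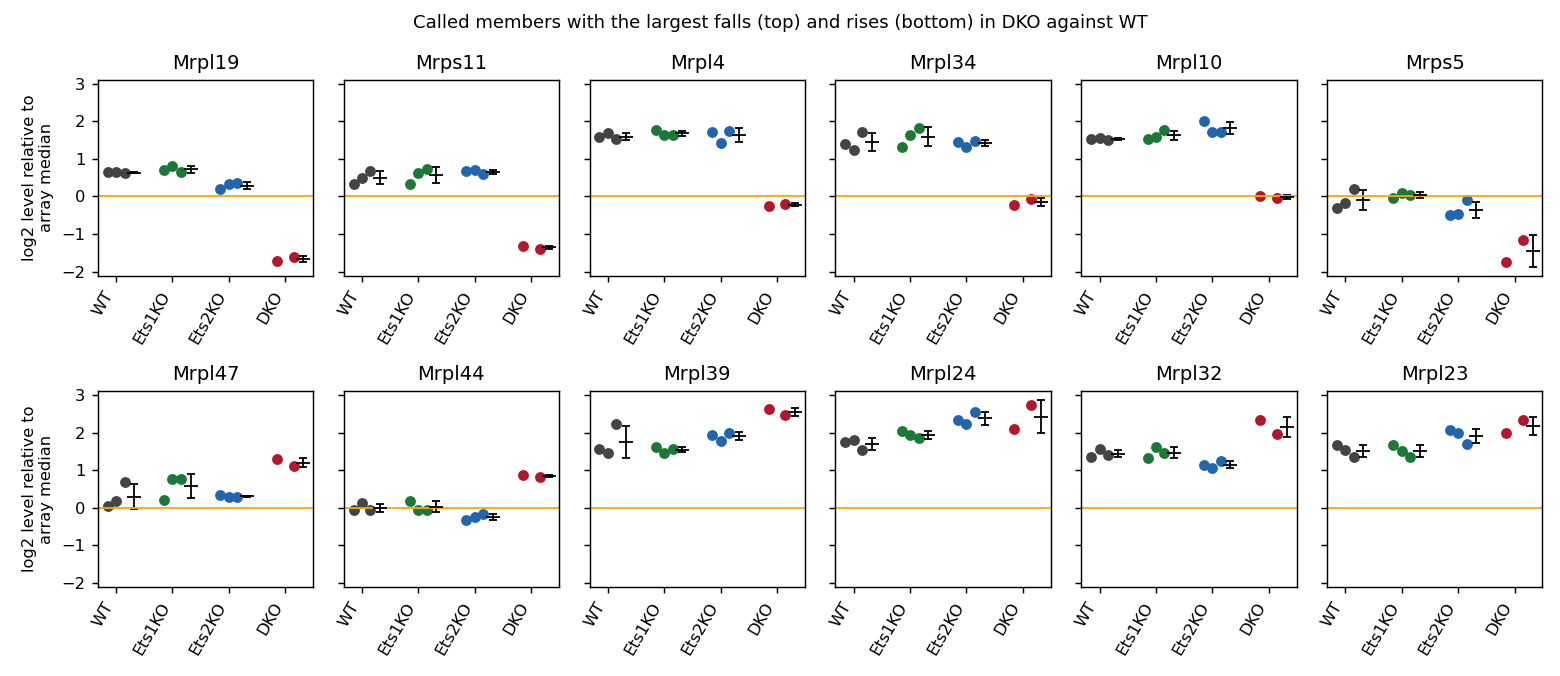
Levels relative to array medians (log2) of the 6 members with the largest falls (top row) and the 6 with the largest rises (bottom row) among members called in DKO against WT. Points are arrays, black bars the group mean with its SD (n = 3, or 2 in DKO), and the orange line the median of all genes. In the top row the DKO points lie below those of the other 3 groups, at -1.72 and -1.62 for Mrpl19.

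The members higher in DKO than in WT were called on the relative scale and none of them on the deposited scale. Mrpl47, a bacterial-type protein near the tunnel exit, read 0.04, 0.18 and 0.68 in WT, 0.21, 0.76 and 0.77 in Ets1KO, 0.33, 0.30 and 0.29 in Ets2KO, and 1.29 and 1.12 in DKO. Both DKO arrays lay above all others, by 0.91 from WT (SE 0.23, limma adjusted p = 0.0181), and by 0.19 on the deposited scale (limma adjusted p = 0.566). Mrpl32, a zinc-binding protein cut to its mature form by the m-AAA protease, read 1.37, 1.56 and 1.41 in WT, 1.34, 1.61 and 1.47 in Ets1KO, 1.13, 1.07 and 1.25 in Ets2KO, and 2.34 and 1.96 in DKO. It was highest in DKO on the relative scale, by 0.70 from WT (SE 0.16, limma adjusted p = 0.0105), and differed by -0.02 on the deposited scale (limma adjusted p = 0.945). Its promoter above carries the NRF1 motif.

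Mrpl39, which resembles a threonyl-tRNA synthetase, was 0.79 higher in DKO than in WT on the relative scale (limma adjusted p = 0.0267), but its second probe set gave -0.31. Mrpl24 was 0.72 and Mrpl23 0.65 higher (limma adjusted p of 0.0266 and 0.0259), and on the deposited scale they differed by 0.00 and -0.07. Mrpl52, the other member called higher, differed by 0.62 (limma adjusted p = 0.01), while its other 2 probe sets gave -0.26 and -0.35. Mrps35 had a larger difference than any of these, 0.92, and was not called (limma adjusted p = 0.0696). The 7 rises are thus statements about level relative to the array median, since their deposited values lay between -0.10 and 0.19 from WT.

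Mrpl44, which has the fold of a double-strand RNA nuclease, had probe sets that went apart. Its brightest probe set read -0.06, 0.13 and -0.07 in WT, 0.19, -0.05 and -0.05 in Ets1KO, -0.32, -0.25 and -0.17 in Ets2KO, and 0.87 and 0.82 in DKO. That gave a difference between DKO and WT of 0.85 (SE 0.13, limma adjusted p = 0.00267), and a further probe set gave 0.95. The remaining 2 gave -0.48 and -1.59, the latter lower at a limma adjusted p of 0.00168 over all probe sets with 1 symbol. In Ets2KO against WT the 4 probe sets gave -0.24, -0.33, -0.27 and -0.38, all on 1 side of 0.

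Disagreement between probe sets of 1 gene was common on the arrays labelled DKO. Of the 29 members with several probe sets, 19 had probe sets on both sides of 0 in DKO against WT (65.5%, and 49.7% of all 4785 such genes), and in 10 the probe sets spanned more than 1 (34.5%, and 45.3% of all). In Ets2KO against WT the numbers were 13 and 1 (44.8% and 3.45%, and 29.7% and 6.48% of all such genes). In Ets1KO against WT they were 5 and 0 (17.2% and 0%, and 29.2% and 2.19% of all). Mrpl9 was not called on its brightest probe set on the relative scale, at -0.50 (as deposited -1.22, called lower), while its other probe sets gave -2.63 and -0.24. Mrpl28 gave -0.33, -1.14 and 0.46, and Mrps2 gave 0.08 and -1.26. Which transcript ends these probe sets read was not analysed here. A single value per gene is therefore a statement about 1 probe set for these members, and 47 members have no second probe set to set beside it.

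**Figure D4:**
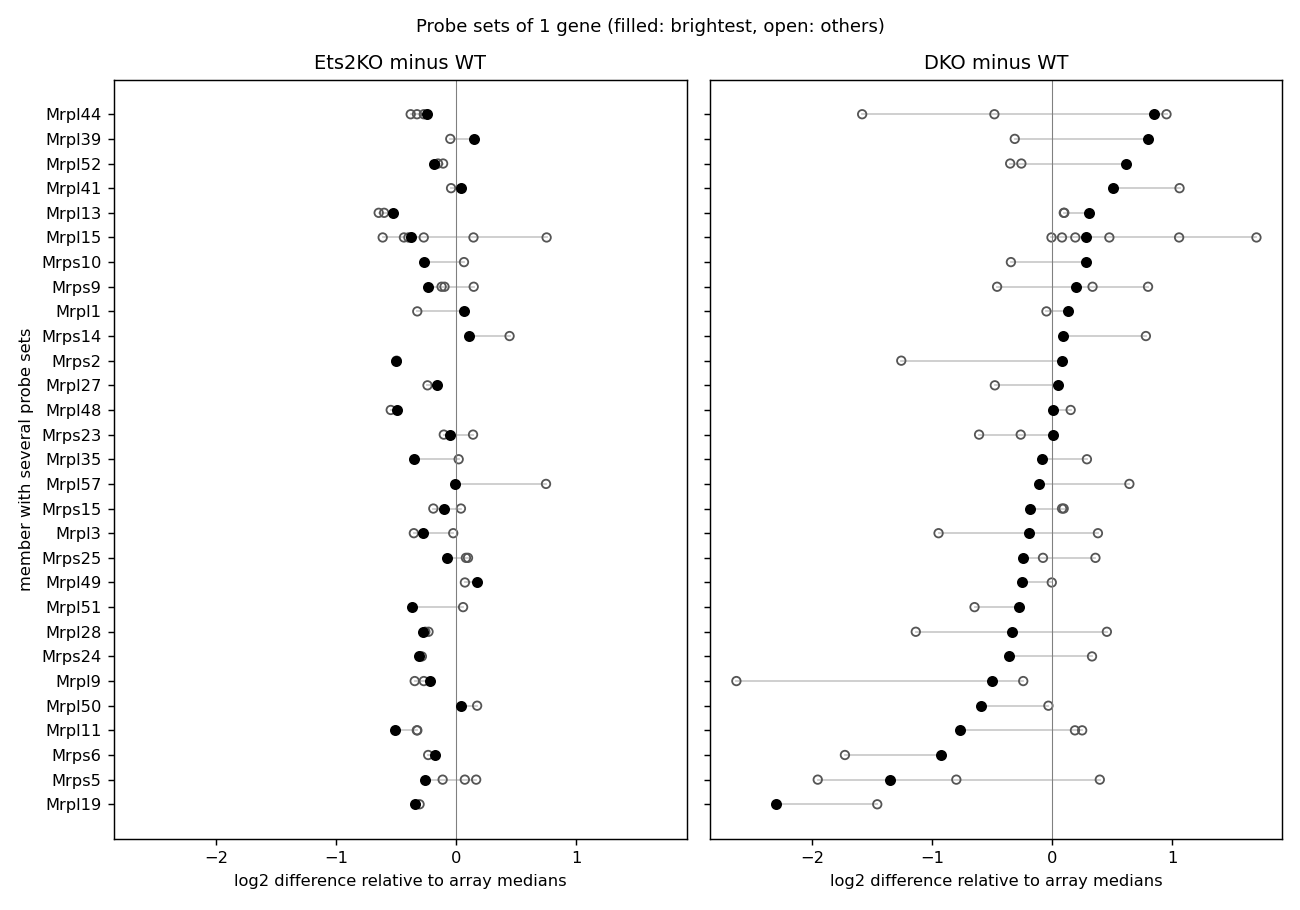
Log2 differences relative to array medians of every probe set of the 29 members with several, in Ets2KO (left) and DKO (right) against WT. Filled points are the brightest probe set of the gene and open points the others, joined by a grey line. In the right panel 10 members span more than 1, among them Mrpl44, Mrpl9 and Mrps5, and both probe sets of Mrpl19 lie below -1.4.

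Relatives within the family differed in their calls in DKO on the relative scale, and were all called lower as deposited. Mrps18a, which despite its name sits in the large subunit, read 1.22, 1.18 and 1.53 in WT and 0.16 and 0.28 in DKO. The DKO arrays were below all others, by -1.09 from WT (SE 0.16, limma adjusted p = 0.00181). Its paralogue Mrps18b differed by -0.19 and Mrps18c by -0.08, neither called, but as deposited by -0.91 and -0.80 (limma adjusted p of 0.00867 and 0.00133). All 3 have an ETS core in the promoter window. Mrpl58, the peptidyl-tRNA hydrolase built into the large subunit that rescues stalled ribosomes, read 1.42, 1.41 and 1.29 in WT and 1.15 and 1.29 in DKO, a relative difference of -0.15 that was not called and a deposited one of -0.87 that was (limma adjusted p = 0.00109). Mrpl43, with a pair of ETS cores above, differed by -0.11 on the relative scale and by -0.83 as deposited (limma adjusted p = 0.00778 for the latter). Mrps30, a large-subunit protein under a small-subunit name, differed by -0.18 and as deposited by -0.90, and Mrps36 by 0.18 and as deposited by -0.54, both called lower on the deposited scale alone (limma adjusted p of 0.00321 and 0.0193).

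The promoter motifs were set against the calls in DKO. Of the 17 members called lower against WT that have a window, 4 held the ETS core (23.5%), as did 1 of the 7 called higher and 20 of the 43 not called (46.5%). The 25 members with the core had a median difference of -0.11 in DKO against WT and -0.26 in Ets2KO against WT, with 23 below 0 in the latter. The 42 without it had -0.34 and -0.23, with 29 below 0 in Ets2KO. The YY1 motif was in 5 of the 17 called lower (Mrps11, Mrps18a, Mrpl36, Mrpl37 and Mrps27), 0 of the 7 called higher and 3 of the 43 not called. The NRF1 motif was in 3, 3 and 9 of them. In the longer forms the YY1 motif was in 4, 0 and 1 of them and the NRF1 motif in 2, 3 and 7. The calls are those of the relative scale. These are counts of letters with no test.

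Against the 2 groups labelled as lacking a single factor, the same arrays gave the following. DKO against Ets1KO, which are both labelled Ets1-/- and differ in Cre and Ets2, had 18 members called lower and 5 higher by limma, where 28.7% of all genes were called, 11.3% lower and 17.4% higher. The median was -0.26 against 0.17 for all genes, 47 were below 0 (40.2% of all genes were), and the groups did not overlap for 35 members lower and 13 higher (22.2% and 36.2% of all genes). On the deposited scale 61 were called lower and 0 higher, where all genes had 42.8% and 1.72%. Without Ets1KO replicate 3, 15 were called, a fit for which calls over all genes are not given. Mrpl19 differed by -2.39, Mrps11 by -1.93, Mrpl4 by -1.91, Mrpl34 by -1.75, Mrpl10 by -1.65 and Mrps5 by -1.49, with limma adjusted p from 4.32e-05 to 0.00217. The rises were Mrpl39 (1.002), Mrpl44 (0.82), Mrpl32 (0.68), Mrpl23 (0.67) and Mrpl52 (0.42), none of them called on the deposited scale. When single arrays were left out, 12 of the 23 kept their call throughout, and those that lost it were Mrpl11, Mrpl14, Mrpl37, Mrpl45, Mrpl46, Mrpl50 and Mrps6 among the falls and Mrpl23, Mrpl32, Mrpl39 and Mrpl52 among the rises. Of the markers of other cell types, Csf1r was called, 0.85 higher in DKO, but not as deposited. It is 1 of 3 macrophage and leukocyte markers, of which 2 were above 0 and 1 below. Its part was not tested.

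DKO against Ets2KO, which share the Cre virus and differ in Ets1 by their labels, had 15 members called lower and 10 higher, where 30.3% of all genes were called, 13.2% lower and 17.1% higher. The median was -0.02 against 0.14 for all genes, 40 were below 0 (42.3% of all genes were), and the groups did not overlap for 25 members lower and 22 higher (23.1% and 32.3% of all genes). On the deposited scale 50 were called lower and 1, Mrpl44, higher, where all genes had 43.3% and 3%. Mrps11 differed by -2.01, Mrpl19 by -1.96, Mrpl4 by -1.86, Mrpl10 by -1.83, Mrpl34 by -1.56 and Mrps5 by -1.10, with limma adjusted p from 6.44e-05 to 0.00701. The largest rises were Mrps35, a mitochondria-specific protein of the small subunit, by 1.22, Mrpl44 by 1.09, Mrpl32 by 0.998, Mrpl47 by 0.90, Mrpl13 by 0.84 and Mrpl52 by 0.81. Mrps35 read 0.48, 0.61 and 0.63 in Ets2KO and 1.23 and 2.36 in DKO, so that its DKO arrays were further from each other than the lower of them was from Ets2KO. Without Ets2KO replicate 2, 16 members were called, and 11 of the 25 kept their call whichever array was left out. The 14 that lost it were Mrpl12, Mrpl20, Mrpl37, Mrpl50, Mrpl54, Mrps6 and Mrps7 among the falls and Mrpl13, Mrpl15, Mrpl22, Mrpl47, Mrps2, Mrps35 and Mrps36 among the rises. Calls over all genes are not given for the fits that left out 1 array. With a term for sex 5 members were called, Mrpl19, Mrps11, Mrpl4, Mrpl34 and Mrpl10, all lower. Of 11015 genes, 172 were then called lower and 89 higher. No Ets2KO array but both DKO arrays had Xist above the Y-linked genes. Markers of other cell types were called in this comparison too. Among 7 fibroblast markers Col1a1 was 3.43 and Col1a2 2.27 higher in DKO, and Dpt differed by -4.16. Of 4 smooth muscle markers Acta2 was 3.71 higher, of 3 macrophage and leukocyte markers Csf1r was 0.67 higher, of 3 adipocyte markers Retn differed by -1.04, and of 4 endothelial markers Eng differed by -2.26. As deposited, Col1a2 and Csf1r were not called, while all 3 adipocyte and 3 of the 4 endothelial markers were called lower. The part of these cell types in the member differences was not tested.

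The interaction asks whether the Cre virus with loss of Ets2 did something else to a gene in cells labelled without Ets1 than in cells with it. It is the DKO minus Ets1KO difference less the Ets2KO minus WT difference. By genotype WT alone had no floxed Ets2 alleles. The Ets2KO minus WT difference therefore also holds the floxed alleles, while DKO and Ets1KO both carried them, and the interaction cannot tell these apart. Limma called 8 of 76 members lower and 3 higher, where 14.5% of all genes were called, 6.94% lower and 7.54% higher. Of the 76 values 35 were below 0 (40.6% of all genes were), with a median of 0.02 against 0.18 for all genes. Of the 46 members of the bacterial type 8 were called lower and 2 higher, and of the 30 mitochondria-specific ones 0 and 1, a difference between classes that was not tested. As deposited, 20 of the 46 and 13 of the 30 were called lower. The 8 were Mrps11 (-2.09), Mrpl19 (-2.04), Mrpl4 (-1.94), Mrpl10 (-1.93), Mrpl34 (-1.71), Mrps5 (-1.23), Mrps18a (-1.14) and Mrpl36 (-1.05), a small zinc-binding protein. Their limma adjusted p ran from 0.000487 to 0.027. Higher were Mrpl44 (1.06), Mrpl32 (0.97) and Mrps2 (0.68), none of which was called on the deposited scale, where 33 members were called lower and 0 higher and 30.1% of all genes were called lower and 1.51% higher. With a term for sex 6 were called lower and 1 higher, where 335 of 11015 genes were called lower and 287 higher. Mrpl32, Mrps2 and Mrps5 lost their call without at least 1 array. Called markers of other cell types were Col1a1 (3.17), Csf1r (0.85, not called as deposited) and Retn (-0.90), and their part was not tested.

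The genes that work with the mitochondrial ribosome were given by lists, in DKO against WT on the relative scale. None of the genes in the 6 lists below was called by limma in Ets1KO or in Ets2KO against WT, where 0 to 2 and 0 to 4 genes of a list had an unadjusted p below 0.05. Of 4 measured mitoribosomal proteins with other names, Gadd45gip1 of the large subunit fell by 1.71 and Dap3, a GTP-binding protein of the small subunit, rose by 0.55. As deposited, 2 of these 4 were called lower and 0 higher. Of 13 translation factors 3 fell and 2 rose, 38.5% of them where 28.3% of all genes were called, and as deposited 8 were called lower and 0 higher. Tufm, the elongation factor that delivers aminoacyl-tRNA to the mitochondrial ribosome, read 1.22, 1.26 and 1.06 in WT and -0.44 and -0.36 in DKO, a difference of -1.58 (limma adjusted p = 0.000266). Tsfm, its exchange factor, read 0.64, 0.79 and 0.95 in WT and -0.97 and -1.06 in DKO, a difference of -1.81 (limma adjusted p = 0.000657). Both partners thus lay below the median gene in DKO alone, and Mrrf, a recycling factor, differed by 0.71 the other way.

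Of 20 assembly factors 5 fell and 4 rose on the relative scale, 45% of them where 28.3% of all genes were called, and as deposited 14 were called lower and 2 higher. The largest were Mrm1, a methyltransferase of the large ribosomal RNA, which rose by 1.83, Tfb1m, which dimethylates the small ribosomal RNA, by 1.63, and Mrm2 and Dhx30, which fell by 1.14 and 0.83 on the log2 scale. Of the rises in these 6 lists, those of Mrm1 and Tfb1m alone were also called on the deposited scale, by 1.11 and 0.91 (limma adjusted p of 0.0114 and 0.012). Of 18 mitochondrial aminoacyl-tRNA synthetases and amidotransferase subunits 3 fell (Sars2 by 1.28, Gatc by 1.23 and Tars2 by 0.85 on the log2 scale) and 2 rose, Nars2 by 0.72 and Rars2 by 0.66, which is 27.8% of the list, and as deposited 9 were called lower and 0 higher. Of 9 genes for mitochondrial DNA and transcription, the polymerase Polrmt fell by 0.88, and Polg2 and Mterf1a rose by 1.20 and 0.92. That is 33.3% of the list, where 28.3% of all genes were called. As deposited 3 were called lower and 0 higher, where 43.6% of all genes were called lower and 2.32% higher.

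Among 11 nuclear regulators of mitochondrial genes, Pprc1, a coactivator of the PGC-1 family, fell by 1.83 on the log2 scale in DKO against WT. Ets1 and Yy1 rose by 0.82 and 0.51. The called genes are 27.3% of the list, where 28.3% of all genes were called. As deposited 5 were called lower and 0 higher, where 43.6% of all genes were called lower and 2.32% higher. Ets2 differed by 0.90 on the relative scale and was not called (limma adjusted p = 0.121). Gabpa differed by -0.21 (limma adjusted p = 0.419) and Nrf1 by 0.29 (0.247), neither called on the relative scale, and on the deposited scale Gabpa differed by -0.93 (limma adjusted p = 0.0041). In Ets1KO and Ets2KO against WT, Gabpa differed by -0.28 and -0.12 and Nrf1 by 0.00 and 0.03, none called.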

How the data were processed

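RNA from mouse aortic endothelial cells was read on Affymetrix arrays. The deposited values are log2 expression per probe set, made with RMA per the submitters' processing notes (version not given in the sources used here). Of 20523 probe sets, 18824 have 1 symbol, 549 several and 1150 none listed. Each gene took its probe set with the highest mean. Of 12 columns, column 3 of DKO was dropped. The median over genes was subtracted on each array, and all 11 arrays entered 1 limma fit (version 3.58.1, R 4.3.3) with a mean per group, 7 residual and 2.14 prior degrees of freedom, and Benjamini-Hochberg adjustment over all 11015 genes at 0.05. The number of arrays limits the precision. The scripts were tested on simulated data. Plots used Python 3.11.15 and matplotlib 3.10.9.

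Alternatives were the deposited scale, quantile normalization, the 75th percentile, other rules for probe sets, a filter, all 12 columns, fits of only the groups compared, array weights, a sex term from Xist and Y-linked genes, a replicate block and leaving out each array. Subtracting the median of all probe sets and NRF1 and YY1 motifs with 1 more base were added after seeing the data. The members, lists and motifs were chosen with earlier results of these data known. Named members are at most the 6 largest rises and falls called in a comparison (where fewer than 3 were called, the 3 of lowest p each way), those whose probe sets oppose by over 1, those whose call rests on 1 array, the extremes of WT level and fixed roles. Of other lists, at most 4 called genes each are named, with Ets1, Ets2, Gabpa and Nrf1. Mrpl43 for its promoter, Mrpl9, Mrpl28 and Mrps6 for their probe sets, and Mrpl12 and Mrps18a among the promoters shown were chosen after their values were seen.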

Additional observations from a re-analysis of the deposited data

Results flagged for a closer look

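The change on loss of Ets2 with Cre differed between cells without and with Ets1 for 11 members by the interaction test (log2, relative to array medians, limma adjusted p below 0.05). The differences were -2.09 for Mrps11, -2.04 for Mrpl19, -1.94 for Mrpl4, -1.93 for Mrpl10 and -1.71 for Mrpl34. They were -1.23 for Mrps5, -1.14 for Mrps18a and -1.05 for Mrpl36, and in the other direction 1.06 for Mrpl44, 0.97 for Mrpl32 and 0.68 for Mrps2. All rest on the 2 arrays labelled DKO, on which the transcripts of Ets1 and, on the relative scale, of Ets2 go against the label. WT alone had no floxed Ets2 alleles, so the change in cells with Ets1 also holds the floxed alleles.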

How the results depend on the processing

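Members called in DKO against WT numbered 60 as deposited and 12 with only those groups. Of 11015 genes, 256 were called higher and 4798 lower as deposited, and 662 and 663 with only those groups. The member median was -0.93 as deposited, -0.35 with the 75th percentile and -0.31 with the sex term. Against Ets1KO 61 members were called as deposited, where 190 of all genes were called higher and 4710 lower. The member median was -1.02 as deposited, -0.44 with the 75th percentile, -0.17 with the mean of probe sets and -0.14 with the second brightest. Against Ets2KO 51 members were called as deposited, 15 with only those groups and 5 with the sex term. All genes called higher and lower were, in that order, 330 and 4773, 973 and 913, and 89 and 172. The member median was -0.73 as deposited, -0.12 with quantile normalization, -0.19 with the 75th percentile and -0.17 with the sex term. In Ets2KO against WT 2 members were called with all 12 columns, where 180 of all genes were called higher and 147 lower. With array weights 8 members were called, where 560 and 525 of all genes were. The member median was -0.15 with weights and -0.077 with the sex term. In Ets2KO against Ets1KO 1 was called as deposited, 1 with quantile normalization, 1 with only those groups, 3 with all 12 columns and 25 with weights. All genes called higher and lower were, in that order, 157 and 167, 254 and 182, 310 and 201, 503 and 304, and 1666 and 1401. The member median was -0.0455 with the sex term. In the interaction 33 members were called as deposited, 20 with all 12 columns and 7 with the sex term. All genes called higher and lower were, in that order, 166 and 3313, 1491 and 1102, and 287 and 335. The member median was -0.73 as deposited, -0.18 with the 75th percentile and -0.13 with the sex term. The causes were not tested.

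Single members changed sign. As deposited, the DKO difference was -0.0161 from WT and -0.0846 from Ets1KO for Mrpl32, -0.0668 and -0.0946 for Mrpl23, and -0.35 from Ets1KO for Mrpl52, and the interaction was -0.0711 for Mrps2. With the second brightest probe set Mrpl39 was -0.21 from WT, Mrpl52 -0.45 from Ets1KO and -0.13 from Ets2KO, and Mrps2 -0.58 in the interaction. With the mean of probe sets Mrpl44 was -0.0046 from WT and -0.0291 from Ets1KO, and Mrpl52 -0.13 from Ets1KO.

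Leaving out 1 array gave 21 to 27 calls in DKO against WT, with a median of -0.31 (without WT replicate 1) to -0.10 (without WT replicate 3). Calls against Ets1KO numbered 15 (the third Ets1KO array left out) to 28, those against Ets2KO 16 (Ets2KO replicate 2 left out) to 27, and those in the interaction 9 to 13. In Ets2KO against Ets1KO it gave 0 to 1, and in Ets2KO against WT 0, with a median of -0.28 to -0.11. With a DKO array left out, the lone array was assumed to vary like the other groups. Calls over all genes are not given for the fits that left out 1 array. Their member counts therefore cannot be set against the share of all genes. Mrpl19, Mrps11, Mrpl4, Mrpl34 and Mrpl10 kept their calls in DKO against WT under all 23 alternatives run, and Mrpl39 in 12. Mrps11, Mrpl4, Mrpl34 and Mrpl10 have 1 probe set each, so the other rules for probe sets read the same probe set for them. All 12 columns added only an average of the DKO arrays. A replicate block gave 22 calls in DKO against WT, 16 against Ets1KO, 22 against Ets2KO and 9 in the interaction. All genes called higher and lower were then, in that order, 1394 and 1133, 1448 and 1070, 1444 and 1256, and 438 and 543. Deviations of same-numbered arrays from their group means had r from -0.325 to 0.104 over 15 pairs. Between WT and Ets1KO r was 0.0706 to 0.104 for same-numbered arrays and -0.0846 to -0.0083 for the others. Between Ets2KO and these groups the same-numbered arrays had -0.269 to -0.0155. With 2 arrays the DKO deviations mirror each other, so these values cannot settle whether the numbers pair the arrays.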
